A study of Mus with 6 samples.

Results

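The BCL2 family holds the genes that decide whether the outer membrane of the mitochondrion stays sealed. Survival proteins of the family (BCL2, BCL-XL and MCL1) bind and hold in check the effectors BAX and BAK, which otherwise form pores and release cytochrome c. The BH3-only proteins, such as BIM, BID, BAD, PUMA and NOXA, bind the survival proteins, and some of them also engage BAX and BAK directly. In T cells, BIM and BCL2 are known as opponents in the death of activated cells, MCL1 is needed throughout T cell life, and BCL-XL is induced by CD28 costimulation. The genes described here were 10 members chosen by name, and all 10 had a value among the 10995 protein-coding genes of the table. They comprised the survival genes Bcl2, Bcl2l1 (BCL-XL) and Mcl1, the BH3-only genes Bcl2l11 (BIM), Bid, Bad, Bbc3 (PUMA) and Pmaip1 (NOXA), and the effector genes Bax and Bak1.

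RNA was sequenced from spleen CD4+ T cells of mice labelled WT, 3 libraries treated with anti-VEGF-B and 3 treated with IgG. In both groups naive cells were stimulated for 3 days with antibodies to CD3 at 5 μg/mL and to CD28 at 2 μg/mL, together with 100 U/mL of IL-2. The groups differed in the added antibody, a neutralizing anti-VEGF-B or normal goat IgG, each at 1 μg/mL. The ages of the mice, and whether the 3 libraries of a group came from separate mice or cultures, were not given in the sources used here, so that p-values measure only the spread between libraries. The study asked how VEGF-B, a growth factor that T cells secrete on activation, acts on their survival, and the comparison of these genes shows which parts of the mitochondrial death machinery differed in RNA. Fewer cells of a kind and less RNA per cell cannot be told apart in such bulk samples.

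Values are FPKM, which correct for the length of a transcript and the reads sequenced, so that genes can be ranked within a group. Differences are log2 fold changes of FPKM + 1, anti-VEGF-B minus IgG, from limma, fitted to the 8816 genes whose mean reached 1 FPKM, and calls were made where the Benjamini-Hochberg adjusted p over all tested genes was under 0.05. The number of reads behind each value is unknown. Over all tested genes the median log2 fold change was -0.15, and 28.7% of genes were called, 23.8% lower and 4.87% higher with anti-VEGF-B. Quantile normalization brought that median to 0.0077, with 10.4% of genes lower and 9.98% higher. On the first principal component IgG replicate 2 (27.2) and anti-VEGF-B replicate 3 (-21.0) lay farthest apart. All 7 CD4+ T cell markers had values, with summed FPKM of 486 to 520 with anti-VEGF-B and 481 to 542 with IgG. Of these 7 markers, Cd3e (log2 fold change -0.51, limma adjusted p = 0.0197) and Cd5 (-0.38, 0.0343) were called lower, against 23.8% of all tested genes. After quantile normalization and after cyclic loess 2 of the 7 were called, both lower (20.3% of all tested genes called in each). When scaled to Actb 1 was lower (19.0% called). After median centring 0 were lower and 2 higher, against 9.15% and 15.5% of all tested genes. The part of Cd3e and Cd5 in the results was not tested. Cd8a did not pass 0.182 FPKM in any library. Of 5 B cell markers 1 was listed (Cd79b, 0.665 to 1.34 FPKM), of 3 NK cell markers 1 (Klrd1, 0.039 to 0.512), of 5 erythroid markers 0, and of 7 myeloid markers 3. The summed myeloid markers were 10.9 to 12.1 FPKM with anti-VEGF-B and 12.4 to 27.0 with IgG, the highest in IgG replicate 3, where Lyz2 was at 16.4 FPKM.

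Neutralizing VEGF-B went with lower Bcl2 and Pmaip1 and higher Bcl2l11. The mean FPKM of Bcl2 fell by 51.3% and that of Pmaip1 fell by 52.1%, whereas that of Bcl2l11 rose by 37.6%. The effectors Bax and Bak1 and the BH3-only genes Bad and Bbc3 did not pass the test. Of the 10 members 9 reached a mean of 1 FPKM and were tested, and 3 of these 9 (33.3%) were called, 2 lower and 1 higher. That share was near the 28.7% of all tested genes, and the median log2 fold change of the 9 members was -0.17, near that of all tested genes. The groups did not overlap for 4 of the 9 (44.4%), 3 lower and 1 higher, against 49.0% of all tested genes, 38.5% lower and 10.5% higher. After quantile normalization, which called 20.3% of tested genes, 3 members were lower and 1 higher. After median centring, which called 24.6% of tested genes (9.15% lower and 15.5% higher), 2 members were lower and 2 higher.

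**Figure D1:**
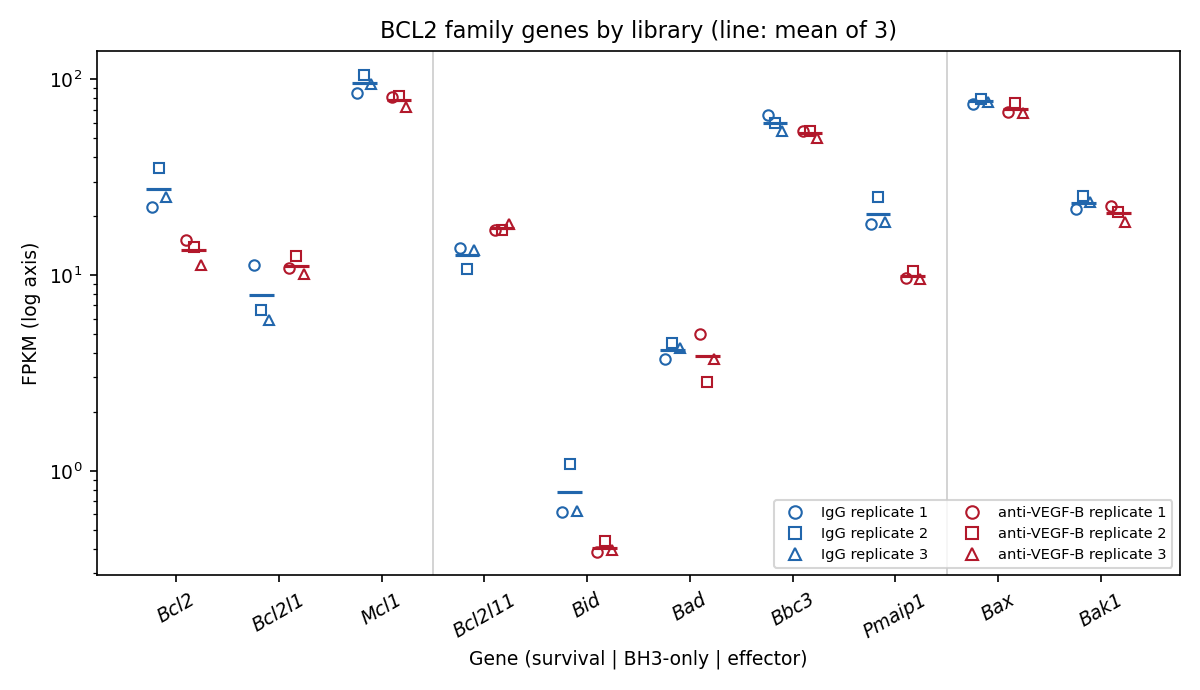
FPKM of the 10 BCL2 family genes in each library on a log axis, with IgG libraries in blue, anti-VEGF-B libraries in red, a symbol for each replicate number and a line at the mean of 3. Bcl2 and Pmaip1 sit lower and Bcl2l11 higher in all 3 anti-VEGF-B libraries than in any IgG library, while Bcl2l1 of IgG replicate 1 (11.2 FPKM) lies among the anti-VEGF-B values.

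Among the survival genes, Bcl2 (ENSMUSG00000057329.7, chromosome 1 of GRCm38, 106538178 to 106714274) encodes the founding member of the family. It was at 15.1, 13.9 and 11.2 FPKM in anti-VEGF-B replicates 1 to 3, against 22.2, 35.4 and 25.0 FPKM in IgG replicates 1 to 3. Every anti-VEGF-B library lay below every IgG library, and IgG replicate 2 was the highest of all. Anti-VEGF-B libraries averaged 13.4 ± 1.99 FPKM and IgG libraries 27.5 ± 6.96 FPKM (SD, n = 3 each). Bcl2 had a log2 fold change of -0.97 (SE 0.166, limma adjusted p = 0.00731), which was -0.81 once the median of all tested genes was subtracted, and 0.873% of tested genes had a lower one. Without any 1 library it ran from -1.10 to -0.78 and stayed called.

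Mcl1 (ENSMUSG00000038612.16, chromosome 3, 95658788 to 95663176), whose short-lived product is needed for T cell survival, had the highest mean of the 10 genes in both groups. It was at 81.6, 81.9 and 71.9 FPKM with anti-VEGF-B and at 85.4, 106 and 95.2 FPKM with IgG. The groups did not overlap, but the gap between the nearest libraries, 81.9 and 85.4 FPKM, was small beside the range of either group. For Mcl1 the log2 fold change was -0.28 (95% interval -0.49 to -0.063, limma adjusted p = 0.0551), or -0.12 beside the median of all tested genes, so that Mcl1 did not pass. It passed after quantile normalization (-0.31, limma adjusted p = 0.0413), after cyclic loess (-0.31, adjusted p = 0.0473) and without IgG replicate 1 (-0.35, adjusted p = 0.0287), against 0.0287 to 0.526 over all alternatives.

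Bcl2l1 (ENSMUSG00000007659.18, chromosome 2, 152780668 to 152831728) encodes BCL-XL, another survival protein of the outer membrane. It was at 10.9, 12.5 and 10.1 FPKM with anti-VEGF-B and at 11.2, 6.62 and 5.91 FPKM with IgG. The 3 anti-VEGF-B libraries were alike, while IgG replicate 1 stood with them and apart from the other IgG libraries. For Bcl2l1 the log2 fold change was 0.49 (SE 0.192, 95% interval 0.059 to 0.93), and the limma adjusted p of 0.0810 did not pass. Without IgG replicate 1 it was 0.74 (limma adjusted p = 0.00951) and after median centring 0.69 (adjusted p = 0.0408), against 0.00951 to 0.249 over the alternatives. Bcl2 and Bcl2l1 had log2 fold changes of opposite sign, and the call of Bcl2l1 depended on the scaling and on whether IgG replicate 1 was included.

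Among the BH3-only genes, Pmaip1 (ENSMUSG00000024521.7, chromosome 18, 66458604 to 66465550) encodes NOXA, which binds MCL1 and is a known p53 target. It was at 9.62, 10.5 and 9.56 FPKM with anti-VEGF-B and at 18.2, 25.0 and 18.7 FPKM with IgG. The anti-VEGF-B libraries lay within 1 FPKM of each other and far below the lowest IgG library. Anti-VEGF-B libraries averaged 9.88 ± 0.511 FPKM and IgG libraries 20.6 ± 3.80 FPKM (SD, n = 3 each). Pmaip1 had a log2 fold change of -0.98 (SE 0.121, limma adjusted p = 0.00469), which was -0.83 after subtracting the median of all tested genes, and 0.817% of tested genes had a lower one. It ran from -1.06 to -0.84 without any 1 library and stayed called.

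Bcl2l11 (ENSMUSG00000027381.16, chromosome 2, 128126038 to 128162547) encodes BIM, which can bind every survival member and BAX. It was at 17.04, 17.1 and 18.3 FPKM with anti-VEGF-B and at 13.8, 10.8 and 13.5 FPKM with IgG. All anti-VEGF-B libraries were above all IgG libraries, and IgG replicate 2, the highest for Bcl2, was the lowest for Bcl2l11. Anti-VEGF-B libraries averaged 17.5 ± 0.705 FPKM and IgG libraries 12.7 ± 1.68 FPKM (SD, n = 3 each). Bcl2l11 had a log2 fold change of 0.44 (SE 0.103, limma adjusted p = 0.0166), which was 0.59 after subtracting the median of all tested genes, and 97.9% of tested genes had a lower one. Leaving out anti-VEGF-B replicate 3 gave 0.41 and ended the call (limma adjusted p = 0.0617, against 0.0119 to 0.0899 over the alternatives).

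Bbc3 (ENSMUSG00000002083.13, chromosome 7, 16308393 to 16318205) encodes PUMA, like NOXA a product of a p53 target gene. It was at 54.8, 54.5 and 50.1 FPKM with anti-VEGF-B and at 66.0, 60.2 and 54.3 FPKM with IgG, and the groups overlapped. PUMA RNA had a log2 fold change of -0.17 (95% interval -0.37 to 0.023, limma adjusted p = 0.157), an interval that lies above the -0.98 of Pmaip1. Bad (ENSMUSG00000024959.13, chromosome 19, 6941861 to 6951898), whose product is held in the cytosol by 14-3-3 proteins when phosphorylated, was at 5.00, 2.85 and 3.73 FPKM with anti-VEGF-B and at 3.73, 4.51 and 4.25 FPKM with IgG. Its anti-VEGF-B libraries spread on either side of the IgG range, with a log2 fold change of -0.11 (95% interval -0.46 to 0.25, limma adjusted p = 0.623). Bid (ENSMUSG00000004446.12, chromosome 6, 120891930 to 120916853), which caspase-8 cleaves to carry a death receptor signal to mitochondria, was the lowest member. It was at 0.387, 0.436 and 0.394 FPKM with anti-VEGF-B and at 0.616, 1.09 and 0.624 FPKM with IgG, without overlap. Its mean was under 1 FPKM, and in the fit with no filter its log2 fold change was -0.33 (standard error 0.110, limma adjusted p = 0.0586), which did not pass. This scale compresses such low values, and the end of the Bid locus overlaps that of Bcl2l13 on the other strand. In the RefSeq annotation of GRCm38, Bcl2l11, Bad and Bak1 also overlap another protein-coding gene (Acoxl, Gpr137 and Ggnbp1), and whether counting used the strand was not given in the sources used here.

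The effector genes were among the more abundant members. Bax (ENSMUSG00000003873.11, chromosome 7, 45461697 to 45466898), also a known p53 target, was at 67.9, 75.7 and 67.1 FPKM with anti-VEGF-B and at 74.8, 79.7 and 76.9 FPKM with IgG. Anti-VEGF-B replicate 2 lay within the IgG range, and the log2 fold change was -0.14 (95% interval -0.30 to 0.033, limma adjusted p = 0.191). Bak1 (ENSMUSG00000057789.13, chromosome 17, 27019810 to 27029009) was at 22.4, 21.0 and 18.7 FPKM with anti-VEGF-B and at 21.7, 25.3 and 23.5 FPKM with IgG, again with overlap. Its log2 fold change was -0.18 (95% interval -0.38 to 0.035, limma adjusted p = 0.177). Relative to the median of all tested genes the values were 0.017 for Bax and -0.023 for Bak1, close to 0. The intervals of these genes leave room for falls of about the size seen for Mcl1.

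**Figure D2:**
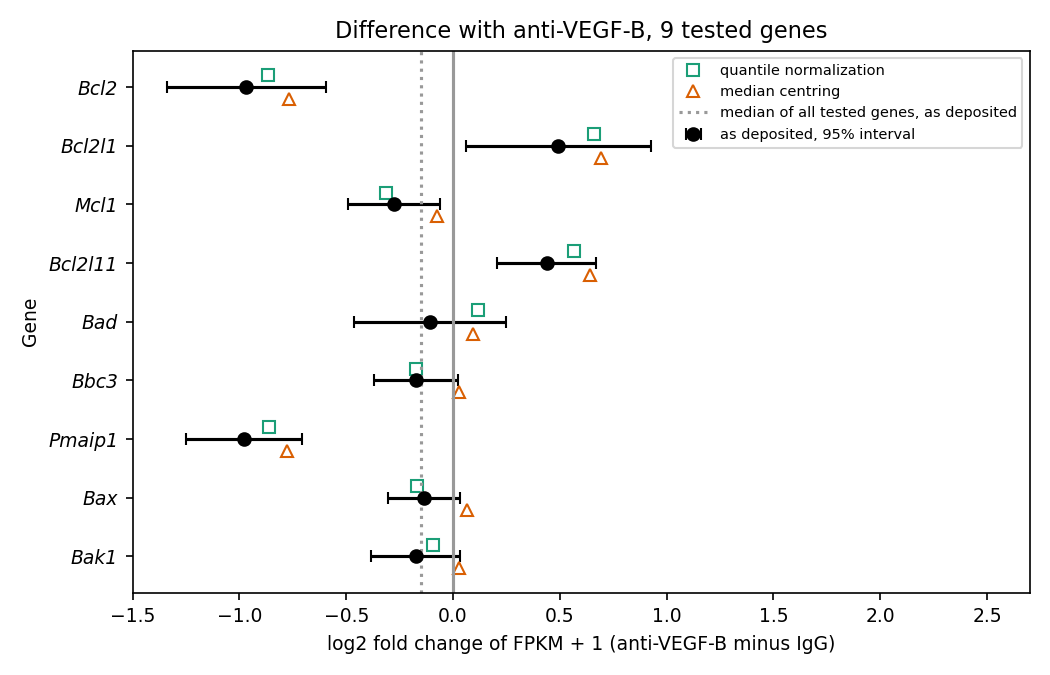
log2 fold change of FPKM + 1 (anti-VEGF-B minus IgG) for the 9 tested genes, as black points with 95% intervals for the values as deposited, green squares after quantile normalization and orange triangles after median centring. The solid grey line marks 0 and the dotted line the median of all tested genes (-0.15). Bcl2 (-0.97) and Pmaip1 (-0.98) lie left of it and Bcl2l11 (0.44) right of it under each scaling shown, while Bad, Bbc3, Bax and Bak1 are above 0 after median centring.

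The order of the levels differed between the groups in its middle. Mcl1 (95.5 FPKM with IgG), Bax (77.1) and Bbc3 (60.2) came first with IgG and were first in the same order with anti-VEGF-B (78.5, 70.2 and 53.1), where the libraries of Mcl1 and Bax overlapped. With IgG, Bcl2 followed by its mean, and then came Bak1 (23.5), with overlap, Pmaip1, also overlapping Bak1, Bcl2l11 and Bcl2l1 (7.91), the last pair overlapping. With anti-VEGF-B, Bak1 (20.7) and Bcl2l11 came before Bcl2, and Bcl2, Bcl2l1 (11.2) and Pmaip1 followed with each overlapping the next. Bad (4.16 with IgG and 3.86 with anti-VEGF-B) and Bid (0.776 and 0.406) were last in both groups. Overlap here is between the ranges of 3 libraries, and within each library the order was that of its group means. Bcl2 thus lay above Bcl2l11 in every IgG library and below it in every anti-VEGF-B library.

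A ratio of a pair of genes within a library does not depend on a scaling factor shared by all genes of that library. Quantile normalization and cyclic loess can change it, and the ratios were computed only from the values as deposited. The 7 pairs compared were of a survival and a death gene whose products bind each other, or act against each other. They were chosen with earlier results known and are not every such pair. The FPKM of Bcl2 relative to Bcl2l11 were 0.886, 0.816 and 0.614 with anti-VEGF-B, against 1.61, 3.29 and 1.85 with IgG. This ratio was 2.80 times higher with IgG (difference of the log2 ratio -1.49, standard error 0.355), with no overlap. Bcl2 relative to Bax was 0.222, 0.184 and 0.167 with anti-VEGF-B and 0.297, 0.444 and 0.324 with IgG, a difference of -0.88 (standard error 0.213) on the log2 scale. Mcl1 relative to Bcl2l11 was likewise lower with anti-VEGF-B, at 4.79, 4.80 and 3.93 against 6.17, 9.84 and 7.07 (difference -0.75, standard error 0.222). In the other direction, Mcl1 relative to Pmaip1 was 8.49, 7.82 and 7.52 with anti-VEGF-B and 4.68, 4.23 and 5.10 with IgG (difference 0.77, standard error 0.0935). Mcl1 relative to Bak1 ran from 3.64 to 3.91 with anti-VEGF-B and from 3.94 to 4.19 with IgG, a difference of -0.096 (standard error 0.0401). These 5 ratios did not overlap between the groups. Each had p = 0.1 in a two-sided exact permutation test, the smallest that 3 against 3 libraries allow (0.14 adjusted over the 7 pairs). The ratios share genes and are not independent of each other. Of single tested genes 49.0% did not overlap either, and the share over other pairs of genes was not computed.

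The remaining ratios, both of Bcl2l1, overlapped. Bcl2l1 relative to Bak1 was 0.484, 0.597 and 0.542 with anti-VEGF-B and 0.517, 0.262 and 0.251 with IgG (difference 0.74, standard error 0.349, exact permutation p = 0.2). Relative to Bad it ran from 2.17 to 4.40 with anti-VEGF-B and from 1.39 to 3.01 with IgG (difference 0.69, standard error 0.468, exact permutation p = 0.3). In both, IgG replicate 1 was the library that lay among the anti-VEGF-B values. BIM also binds BCL-XL, and that ratio, taken up after the values were seen and not tested, was 0.637, 0.734 and 0.556 with anti-VEGF-B and 0.810, 0.615 and 0.439 with IgG (Bcl2l1 relative to Bcl2l11, difference 0.083, standard error 0.281), with overlap. Across the pairs the sign of the difference varied, negative for Bcl2 against Bcl2l11 and Bax and for Mcl1 against Bcl2l11, and positive for Mcl1 against Pmaip1.

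**Figure D3:**
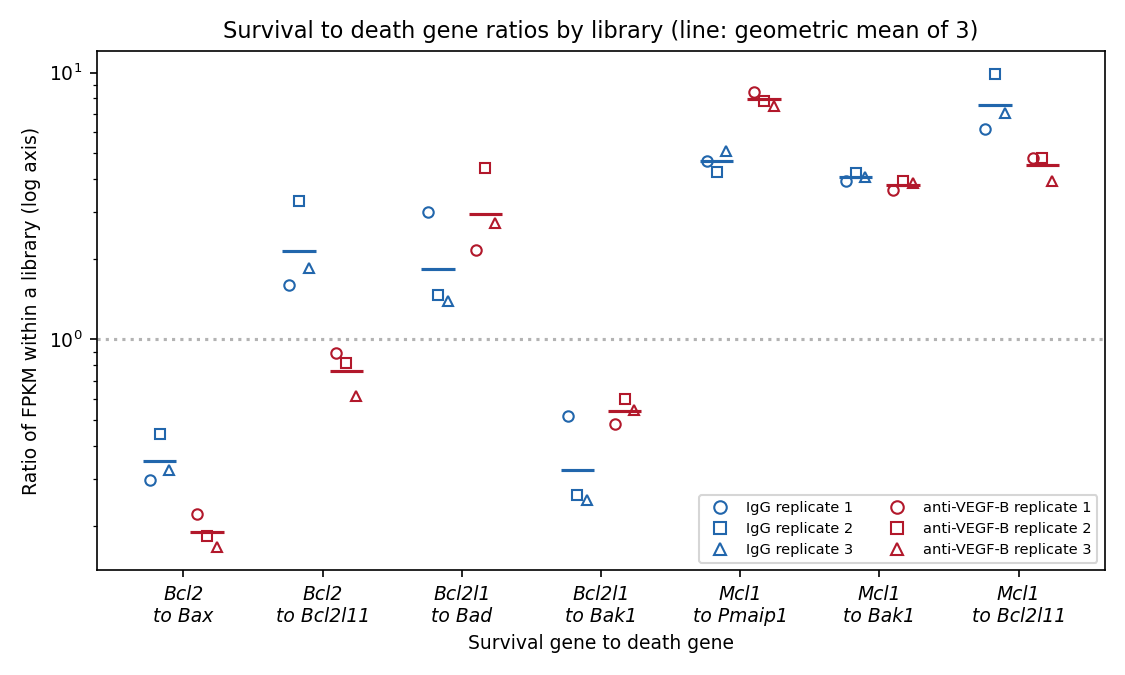
Ratio of FPKM of a survival gene to a death gene within each library, on a log axis, for 7 pairs, with IgG libraries in blue, anti-VEGF-B libraries in red and a line at the geometric mean of 3. The dotted line marks equal FPKM. Bcl2 to Bcl2l11 lies above it in all IgG libraries and below it in all anti-VEGF-B libraries, and Mcl1 to Pmaip1 is higher with anti-VEGF-B.

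Of the 10 genes 7 were highest among the IgG libraries in IgG replicate 2 and 7 were lowest among the anti-VEGF-B libraries in anti-VEGF-B replicate 3, the libraries at the ends of the first principal component. Over all tested genes these shares were 59.3% and 45.0%. The exceptions were Bcl2l1, Bbc3 and Bcl2l11 in the IgG libraries and Bad, Bid and Bcl2l11 in the anti-VEGF-B libraries. Bcl2l11 did the reverse, being lowest in IgG replicate 2 and highest in anti-VEGF-B replicate 3. Without IgG replicate 2 the log2 fold changes were -0.78 for Bcl2, -0.84 for Pmaip1 and 0.33 for Bcl2l11, and all 3 stayed called. Without IgG replicate 3, where the summed myeloid markers were highest, they were -1.02, -1.04 and 0.48. The part of myeloid RNA in these differences was not tested. Leaving out IgG replicate 1 raised the number of members called to 5, adding Bcl2l1 and Mcl1 (28.0% of tested genes), and leaving out anti-VEGF-B replicate 3 lowered it to 2 (9.74% of tested genes).

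**Figure D4:**
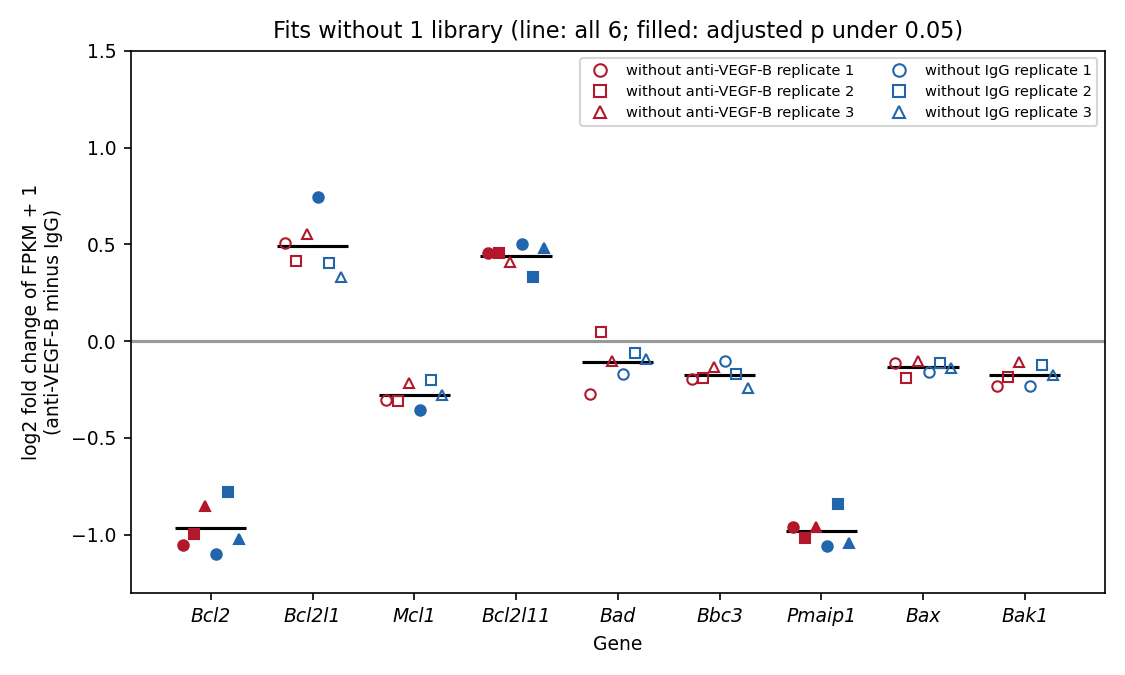
log2 fold change of FPKM + 1 (anti-VEGF-B minus IgG) of the 9 tested genes in fits that each leave out 1 library. Black lines show the fit to all 6 libraries, colours and symbols the library left out, and filled symbols an adjusted p under 0.05. Bcl2 and Pmaip1 are filled in all 6 fits, Bcl2l11 in all but the fit without anti-VEGF-B replicate 3, and Bcl2l1 and Mcl1 in the fit without IgG replicate 1 alone.

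Of the other genes of the BCL2 family, 13 of 17 listed by name had values and 10 were tested. Of these 3 were called, all lower, near the share of all tested genes (28.7% called, 23.8% lower), and the median log2 fold change of the 10 was -0.24. Leaving out IgG replicate 2, or anti-VEGF-B replicate 3, left 0 of the 10 called by limma (4 and 2 at an unadjusted p under 0.05). After quantile normalization, median centring or cyclic loess, 0 of the 10 were called lower and 1, Bcl2l14, was called higher. Of all tested genes these settings called 20.3%, 24.6% and 20.3%. Bnip2, a BCL2-interacting protein gene, went down to 8.87 ± 0.891 FPKM from 12.04 ± 0.843 in the IgG libraries (log2 fold change -0.40, limma adjusted p = 0.0187). Bcl2l13 (-0.37, limma adjusted p = 0.0462), an outer membrane protein of the family, and Bcl2a1b (-0.32, adjusted p = 0.0452) were the others. None of the 3 stayed called after quantile normalization (adjusted p of 0.0574 for Bnip2, 0.299 for Bcl2l13 and 0.0694 for Bcl2a1b in limma), against ranges over the alternatives of 0.0185 to 0.107, 0.0419 to 0.299 and 0.0333 to 0.384. The Bcl2a1 genes encode the NF-κB-induced survival protein BFL1 and are near-identical copies, so that reads could have been split among them. Bcl2a1a is listed at 0 in IgG replicate 3 and at 1.97 and 2.04 FPKM in the other IgG libraries, with 1.01 to 1.59 with anti-VEGF-B, and Bcl2a1d did not pass (-0.43, limma adjusted p = 0.0706).

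The mitophagy receptor genes Bnip3 and Bnip3l, relatives of the BH3-only group, were far more abundant than the 10 members. Bnip3 averaged 295 ± 13.4 FPKM in the anti-VEGF-B and 292 ± 10.1 FPKM in the IgG libraries (SD, n = 3 each), and Bnip3l 301 ± 54.3 and 253 ± 56.2, with overlap. Their log2 fold changes were 0.011 (95% interval -0.15 to 0.17) and 0.26 (-0.12 to 0.63), and neither passed. That of Bnip3l ran from 0.12 without anti-VEGF-B replicate 3 to 0.43 without IgG replicate 3. Bmf, a BH3-only gene whose product is held at the cytoskeleton, lay under the filter, at 0.515, 0.507 and 0.612 FPKM with anti-VEGF-B and 0.983, 0.959 and 0.933 with IgG. In the fit with no filter it fell (log2 fold change -0.34, limma adjusted p = 0.0199). Bik, a further BH3-only gene under the filter, ran from 0 to 0.402 FPKM with anti-VEGF-B and from 0.161 to 0.485 with IgG. The survival gene Bcl2l2 (BCL-W), at 2.18 ± 0.163 and 2.71 ± 1.32 FPKM, Bcl2l12 (1.37 ± 0.434 and 2.03 ± 0.280), Bcl2l14 (2.41 ± 0.212 and 2.21 ± 0.215) and Bcl2l15 (1.16 ± 0.385 and 0.671 ± 0.128, under the filter) did not pass. Bcl2l14 was higher after quantile normalization (0.33, limma adjusted p = 0.0304, against 0.0304 to 0.823 over the alternatives). Bcl2a1c, Bcl2l10, Hrk and Bok were not analysed here.

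Downstream and upstream of the family, 60 genes of 7 lists, the other family genes included, were tested and 21 (35%) were called, 20 lower and 1 higher, against 28.7% of all tested genes. The number fell to 8 without anti-VEGF-B replicate 3 and to 11 without IgG replicate 2, where 9.74% and 15.4% of all tested genes were called. After quantile normalization 13 of the 60 were lower and 1 higher, against 10.4% and 9.98% of all tested genes. After median centring 9 were lower and 9 higher, against 9.15% and 15.5%. In the list of mitochondrial release and the apoptosome, 2 of 9 genes were lower and 1 higher, near the share of all tested genes (23.8% and 4.87%), with a median of -0.19 beside -0.15 over all tested genes. Cycs, which encodes the cytochrome c set free through BAX and BAK pores, went from 13.5 ± 0.881 to 10.4 ± 1.34 FPKM (log2 fold change -0.35, limma adjusted p = 0.0359), and Diablo, whose product relieves caspases of their inhibitors, from 2.03 ± 0.417 to 1.13 ± 0.209 (-0.50, adjusted p = 0.0214). Vdac1, an abundant channel of the outer membrane, rose from 504 ± 26.1 to 611 ± 48.2 FPKM (0.28, limma adjusted p = 0.0392). None of these 3 calls was kept after quantile normalization, without anti-VEGF-B replicate 3 or without IgG replicate 2 (0 of 9 called by limma and 3 at an unadjusted p under 0.05 each time). After median centring 0 of the 9 were lower and 3 higher, against 9.15% and 15.5% of all tested genes, with a list median of 0.014. Apaf1, the scaffold of the apoptosome, had -0.19 (limma adjusted p = 0.125), and Casp9, which it activates, lay under the filter at 0.227 to 0.594 FPKM with anti-VEGF-B and 0.238 to 1.26 with IgG.

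In the list of caspases and their nuclease, 4 of 6 genes were lower, against 23.8% of all tested genes, with a median of -0.46. Casp8, the initiator of the death receptor arm that also cleaves BID, went from 19.5 ± 4.18 to 12.8 ± 1.196 FPKM (log2 fold change -0.55, limma adjusted p = 0.0214), and Casp2 had -0.55 (0.0343). Dffa and Dffb, the inhibitor and the nuclease of the enzyme that cuts DNA in dying cells, had -0.72 (limma adjusted p = 0.0152) and -0.38 (0.0289). Both were low, Dffa at 1.17 to 1.33 FPKM with anti-VEGF-B and 2.11 to 3.88 with IgG. Dffb was at 1.15 to 1.41 FPKM with anti-VEGF-B and 1.73 to 2.16 with IgG. Casp8 and Dffa were the 2 called after quantile normalization (20.3% of all tested genes called). Dffa was the 1 called after median centring (24.6%), where Casp8 had -0.35 (limma adjusted p = 0.0598, against 0.0137 to 0.1235 over the alternatives). Likewise, 1 of the 6 was called without anti-VEGF-B replicate 3 (Casp8), where 9.74% of all tested genes were called. Without anti-VEGF-B replicate 1 it was also 1 (Dffa), where 1679 of the 8816 tested genes were called.

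Of 5 inhibitors of apoptosis 1 was called, Birc5 (survivin, which also serves in cell division), with a log2 fold change of -0.32 (limma adjusted p = 0.0405). The median of the 5 was 0.065, beside -0.15 over all tested genes. After median centring 0 of the 5 were lower and 1 higher, against 9.15% and 15.5% of all tested genes. Birc5 lay near the filter, at 0.781 to 0.904 FPKM with anti-VEGF-B and 1.15 to 1.42 with IgG. Its call was lost whichever 1 library was left out (limma adjusted p of 0.0586 to 0.131). Xiap, which blocks caspases directly, was at 7.13, 5.35 and 7.56 FPKM with anti-VEGF-B and at 6.61, 1.87 and 3.06 FPKM with IgG. As for Bcl2l1, IgG replicate 1 stood among the anti-VEGF-B libraries. The log2 fold change of Xiap was 0.77 (95% interval 0.10 to 1.44, limma adjusted p = 0.0784), 1.16 without that library (limma adjusted p = 0.0100, against 0.0100 to 0.261 over the alternatives) and 0.45 without IgG replicate 2 (adjusted p = 0.225). In the death receptor arm 1 of 8 genes was called, Tnfrsf10b, the receptor of the death ligand TRAIL, at 5.43 ± 0.769 FPKM against 10.6 ± 1.17 with IgG (log2 fold change -0.85, limma adjusted p = 0.00491). It stayed called under each scaling and without any 1 library. Fas had -0.28 (limma adjusted p = 0.0733) and Cflar, the caspase-8 inhibitor FLIP, -0.20 (0.131), and Fasl lay under the filter at 0.286 to 0.852 FPKM over all libraries. Among 11 regulators of BCL2 family proteins, Ywhab, a 14-3-3 protein gene, was the 1 called (-0.46, limma adjusted p = 0.0119). After median centring 3 of the 11 were called, 1 lower and 2 higher, against 9.15% and 15.5% of all tested genes. For the inhibitors, the death receptor arm and the regulators, the share called as deposited lay under the 28.7% of all tested genes.

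The p53 arm, to which Pmaip1, Bbc3 and Bax are tied as known p53 targets, held the most calls of the 7 lists. Of 11 genes tested, 8 were called and all 8 were lower, against 23.8% of all tested genes, with a median log2 fold change of -0.45. The 3 not called, named here after their values were seen, were Mdm2, the p53 inhibitor and target (0.032, limma adjusted p = 0.778), Perp (0.11, 0.395) and the cell cycle inhibitor gene Cdkn1a (-0.17, 0.123). Cdkn1a was called lower after quantile normalization (-0.28, limma adjusted p = 0.0231) and cyclic loess (-0.27, 0.0286), and Perp higher after cyclic loess (0.31, 0.0483) and median centring (0.31, 0.0472), against 0.0231 to 0.867 and 0.0472 to 0.596 over the alternatives. Trp53 itself went down to 14.8 ± 1.15 FPKM from 20.2 ± 1.62 in the IgG libraries (-0.43, limma adjusted p = 0.0128). It was not called after median centring (-0.23, limma adjusted p = 0.135), when scaled to Actb (-0.36, 0.0539) or without anti-VEGF-B replicate 3 (-0.37, 0.0516), against 0.0128 to 0.135 over the alternatives. The stress-induced target Trp53inp1 was at 27.3, 22.4 and 20.2 FPKM with anti-VEGF-B and at 41.1, 54.9 and 46.1 FPKM with IgG (log2 fold change -0.99, limma adjusted p = 0.00488). Ccng1, which encodes cyclin G1, went from 122 ± 9.68 to 78.4 ± 10.8 FPKM (-0.64, limma adjusted p = 0.00685). Sesn2, a target that restrains mTORC1, had -0.70 (limma adjusted p = 0.00711), and Mdm4, a p53 inhibitor, -0.44 (0.0115). Of the 11 genes 9 were lower after quantile normalization and 9 after cyclic loess (20.3% of all tested genes called in each). When scaled to Actb 7 were lower (19.0% called), and after median centring 6 (24.6% called). After cyclic loess 1 was higher, and after median centring 1. Without anti-VEGF-B replicate 3, 5 of the 11 were called, against 9.74% of all tested genes. Of the targets within the BCL2 family, Pmaip1 had -0.98, Bbc3 -0.17 and Bax -0.14, with 95% intervals for the last pair that lay above that of Pmaip1 (upper bound -0.71).

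**Figure D5:**
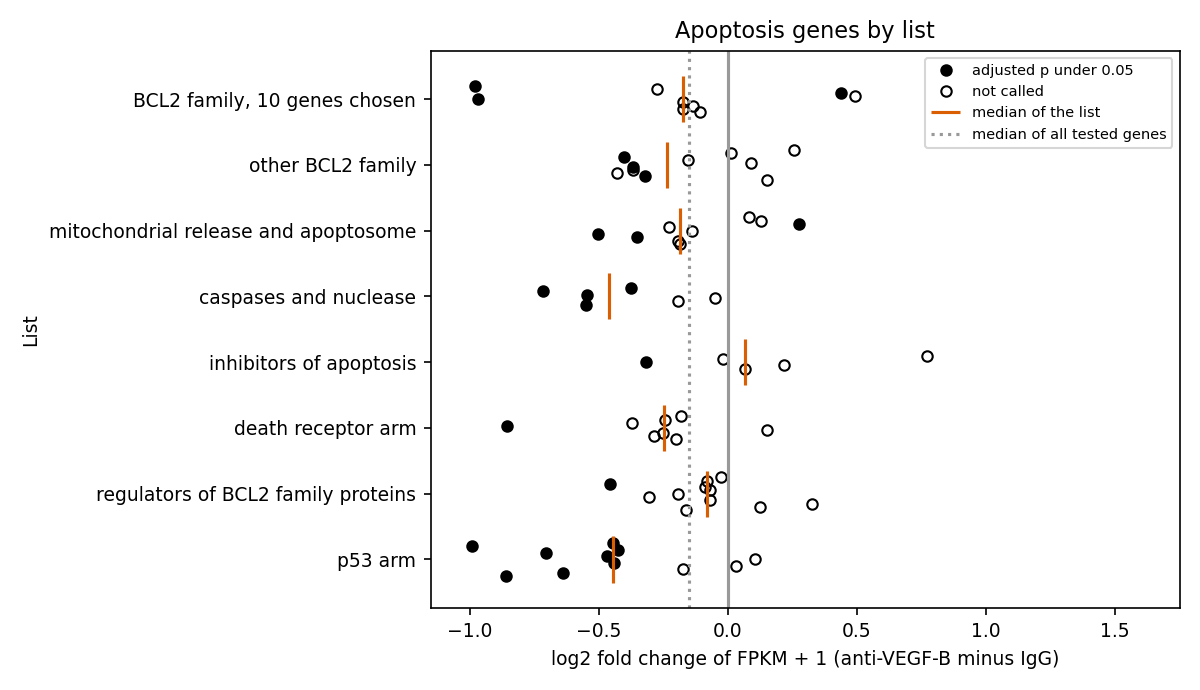
log2 fold change of FPKM + 1 (anti-VEGF-B minus IgG) of each tested gene, by list, with filled points for an adjusted p under 0.05, an orange bar at the median of the list, a solid grey line at 0 and a dotted line at the median of all tested genes (-0.15). The p53 arm (8 of 11 called, all lower) and the caspases (4 of 6, all lower) have medians of -0.45 and -0.46, and the chosen BCL2 family genes spread from -0.98 to 0.49.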

How the data were processed

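RNA from activated spleen CD4+ T cells (3 anti-VEGF-B and 3 IgG libraries, groups and replicate numbers from the sample titles) was prepared by the authors with a stranded kit, aligned to GRCm38/mm10 with hisat2 and quantified with StringTie and Ballgown. The authors deposited 1 table, named as raw data, whose values are not whole numbers and were taken as FPKM. How its 10995 genes were filtered, or the libraries normalized to each other, is not given in the sources used here. Low values (under 0.3 FPKM) shared no step worth 1 read (at most 1.37% shared a ratio between libraries), so that no count model was run and depth is unknown.

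limma 3.58.1 (R 4.3.3, empirical Bayes with trend, no covariate) was run on log2(FPKM + 1) of genes whose mean reached 1 FPKM, and p-values were adjusted over all 8816 tested genes. Genes under the filter were taken from the fit without it. Pair ratios were tested with exact permutation tests. The method was tested on simulated data.

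The 10 members and the lists were chosen with earlier results of these data known. Named were all family genes, at most the 4 called genes with the lowest p in each other list, and Casp9, Cycs, Apaf1, Xiap, Fas, Fasl, Cflar and Trp53. Some genes of the lists were counted but are not reported here by name. Alternatives changed the scaling, filter, pseudocount, moderation, replicate block and libraries.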

Additional observations from a re-analysis of the deposited data

How the results depend on the processing

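Bcl2 and Pmaip1 stayed lower and called, and Bcl2l11 higher and called, under every scaling, filter, pseudocount and the replicate block, and lost their calls with no moderation of variances. In those ordinary fits, 12 genes were called over the table (3208 at an unadjusted p under 0.05), 0 BCL2 family members (3 unadjusted) and 0 genes of the other lists (22 unadjusted), with adjusted p of 0.0850 for Bcl2 (-0.97), 0.0696 for Pmaip1 (-0.98) and 0.0899 for Bcl2l11 (0.44). In all, 1674 genes were called when scaled to Actb and 1331 of those with a mean of at least 5 FPKM. Leaving out 1 library gave 859 to 2467 genes over the table, 2 to 5 members and 8 to 19 genes of the other lists, the lowest each time without anti-VEGF-B replicate 3. Bcl2l1 was called after median centring (0.69) and ran from 0.33 to 0.74 over the fits without 1 library, and Bcl2l11 from 0.33 to 0.50. Mcl1 was called after quantile normalization (-0.31), cyclic loess (-0.31) and with the replicate block (-0.28), and ran from -0.35 to -0.20 without 1 library. Among the uncalled members the sign changed for Bad after quantile normalization (0.12), median centring (0.093) and cyclic loess (0.11), with -0.27 to 0.048 without 1 library, and after median centring for Bbc3 (0.028), Bax (0.065) and Bak1 (0.026). It also changed for Bcl2l2 after quantile normalization (0.081), median centring (0.046) and cyclic loess (0.074), for Bnip3 after quantile normalization (-0.054) and cyclic loess (-0.073), and after median centring for Apaf1 (0.0063). Without 1 library Bcl2a1a ran from -0.38 to 0.43, Bcl2l2 from -0.46 to 0.082 and Bnip3 from -0.024 to 0.040. The differences of the 7 pair ratios kept their direction with 1 added to each FPKM and without any 1 library. The cause of these changes was not tested.

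The deviations of same-numbered libraries from their group means correlated at -0.0296, 0.110 and 0.0891, so that the numbers were not taken to pair the samples. With the replicate block 2578 genes, 4 members (Mcl1 added) and 26 genes of the other lists were called, Bnip3l (adjusted p = 0.0211) and Xiap (0.0359) among those added. With no depth given, the precision of low values such as those of Bid is unknown.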
